A study of Mus musculus with 6 samples.

Results

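The osteocalcin gene cluster of the mouse consists of Bglap, Bglap2 and Bglap3. The 3 genes were picked by their symbols in the deposited gene annotation, out of 54532 genes in all, and followed by gene identifier through the counts and the FPKM values. RNA-seq had been performed on wild-type primary mouse bone marrow mesenchymal stem cells (BMSCs), a culture of marrow stroma able to become osteoblasts, to examine gene expression under nickel during osteogenic differentiation. All cultures had spent 7 days in osteogenic medium with dexamethasone, ascorbic acid and β-glycerophosphate; the 3 control libraries (Con) had no added nickel and the 3 Ni libraries had 0.1 μM nickel ion. Per the labels β-glycerophosphate was at 10 mM, ascorbic acid at 50 μg/mL and dexamethasone at 100 nM, while the methods of the study name another dexamethasone concentration. Age, sex and strain of the donor mice are not given in the labels, nor is it stated whether the cultures came from separate animals, so p-values measure only the spread between these samples, which may be technical.

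Osteocalcin is a small secreted protein of bone that osteoblasts make late in their differentiation. Glutamate residues of the protein are carboxylated in a vitamin K-dependent reaction to Gla residues, which bind calcium and hydroxyapatite, and the less carboxylated form can enter the circulation. In the mouse, Bglap and Bglap2 are the genes used in bone, and Bglap3 is known mainly from other tissues. Osteocalcin transcription is driven by the osteoblast factors Runx2, Sp7 and Atf4 and is repressed by glucocorticoids such as dexamethasone.

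Libraries held from 16101033 to 18642504 counts. Control replicate 3 stood apart from its group: over the log2 CPM of all genes tested, its mean Pearson's r was 0.978 with the other controls and 0.987 with the Ni libraries, whereas control replicates 1 and 2 had 0.984 and 0.982 with controls and 0.976 and 0.973 with Ni libraries. Ni replicate 2 was the Ni library nearest the controls, at 0.982 with controls and 0.984 with Ni libraries. Ni replicates 1 and 3 had 0.977 and 0.976 with controls and 0.987 and 0.987 with Ni libraries. Results on the osteocalcin genes are therefore given with and without control replicate 3. It was singled out by its likeness to the Ni libraries, so leaving it out favours a larger group difference. Calls made without it describe how far results depend on that library and are not support for a difference. As labelled, the cells expressed osteoblast markers, whose summed level over 6 genes (Runx2, Sp7, Alpl, Col1a1, Ibsp and Pth1r) was 5651 to 11440 CPM in controls and 14810 to 20330 CPM in Ni libraries. Macrophage markers were also abundant, with a sum over 6 genes of 16370 to 20570 CPM in controls and 15870 to 18100 CPM in Ni libraries, so RNA with macrophage transcripts was present in every culture.

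The 3 genes lie side by side on the minus strand of chromosome 3 (GRCm38) within 15849 bases. Bglap (ENSMUSG00000074483) spans chr3:88383501-88384464, Bglap2 (ENSMUSG00000074486) spans chr3:88377736-88378699, and Bglap3 (ENSMUSG00000074489) spans chr3:88368616-88372743. The gaps between neighbouring members measure 4801 and 4992 bases. Each gene has a coding sequence of 288 bases, spliced from 4 exons in the first coding transcript of GENCODE M21. These coding sequences are shown because they decide how far reads of 1 member can be told from reads of another. Capitals in Bglap mark the bases that differ from Bglap2, and capitals in Bglap2 and Bglap3 mark the bases that differ from Bglap.
Bglap: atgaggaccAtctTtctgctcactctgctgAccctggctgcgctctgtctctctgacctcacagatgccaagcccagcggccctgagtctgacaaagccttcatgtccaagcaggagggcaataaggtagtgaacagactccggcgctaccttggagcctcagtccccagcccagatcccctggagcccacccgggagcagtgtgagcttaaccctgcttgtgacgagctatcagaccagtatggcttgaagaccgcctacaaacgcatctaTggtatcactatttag
Bglap2: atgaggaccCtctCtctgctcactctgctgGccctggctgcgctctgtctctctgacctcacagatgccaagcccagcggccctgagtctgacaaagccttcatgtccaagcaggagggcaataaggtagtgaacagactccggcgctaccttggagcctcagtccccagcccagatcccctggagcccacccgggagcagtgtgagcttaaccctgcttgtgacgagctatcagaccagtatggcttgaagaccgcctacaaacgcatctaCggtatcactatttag
Bglap3: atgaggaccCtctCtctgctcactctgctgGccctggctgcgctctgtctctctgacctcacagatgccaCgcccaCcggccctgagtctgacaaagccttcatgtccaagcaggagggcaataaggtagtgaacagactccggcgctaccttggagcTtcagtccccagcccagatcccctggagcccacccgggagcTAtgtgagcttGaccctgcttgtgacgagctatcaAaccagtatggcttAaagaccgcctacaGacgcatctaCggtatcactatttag

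Bglap and Bglap2 differed at 4 of 288 coding bases (98.6% identity), and shared an identical run of 241 bases, from position 32 to position 272 of the coding sequence. Counted from 1 at the A of the start codon, with the base of Bglap given before the position, the differences were A10C, T14C, A31G and T273C. Of the 4 codons affected, 3 encode another residue and 1 does not. No residue after codon 11 differed, so the mature protein, which is cut from the C-terminal portion of the precursor, is the same for both genes. Bglap3 differed from Bglap at 13 bases (95.5% identity) and from Bglap2 at 9 bases (96.9% identity). Against either gene, Bglap3 had 6 residue changes after codon 11, the last at codon 88. The bases of Bglap2 at positions 10, 14, 31 and 273 were also those of Bglap3.

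How much of each gene can be assigned without ambiguity was measured by cutting all annotated transcripts into stretches of 50 bases. Of the 569 distinct stretches of Bglap, 322 (56.6%) also occurred in another member, and 247 occurred in no other gene. In Bglap2, 372 of 422 stretches (88.2%) were shared with another member and 50 were found in no other gene. In Bglap3 only 190 of 2720 stretches (6.99%) were shared with another member, and 2406 were in no other gene. Bglap2 is therefore the member with the least sequence of its own at this length. With stretches of 25 bases the shared part was 66.3%, 96.6% and 12.1% for Bglap, Bglap2 and Bglap3, and with 100 bases it was 38.7%, 57.0% and 1.03%. Part of the private sequence of Bglap comes from a transcript with a retained intron: in its coding transcript alone, 292 of 391 stretches (74.7%) were shared. The read length and the treatment of reads that fit several genes are not given in the sources used here, so the division of reads between Bglap and Bglap2 is uncertain, as is whether shared reads were counted at all.

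**Figure D1:**
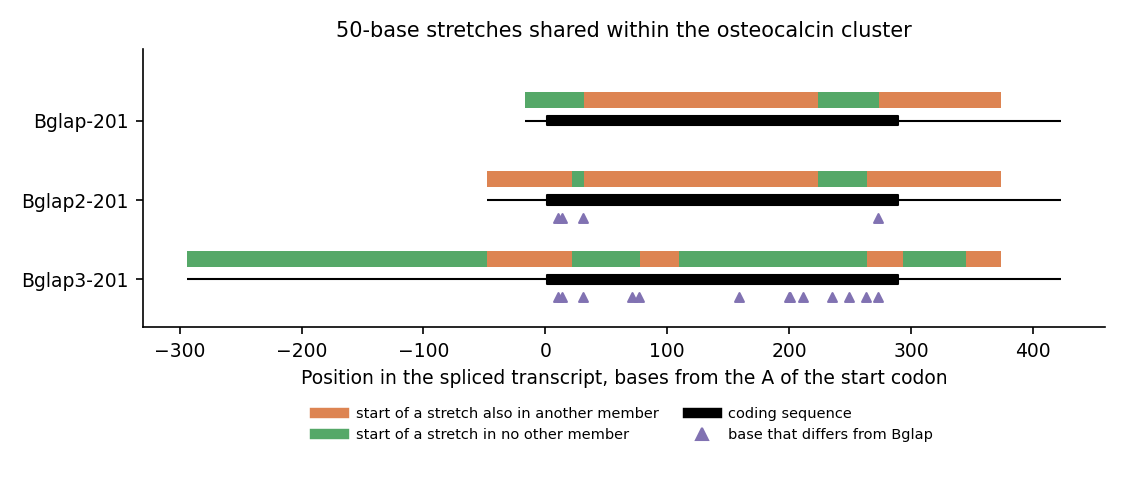
Stretches of 50 bases along the main coding transcript of Bglap, Bglap2 and Bglap3, with 1 row for each and the position in bases from the start codon on the x axis; the coloured band marks where stretches start that another member also holds (orange) or none does (green), the black bar is the coding sequence, and triangles mark bases that differ from Bglap. Shared stretches make up most of Bglap (74.7%) and Bglap2 (88.2%) and the minority of Bglap3 (23.95%).

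The promoter of Bglap is shown because several regulators described below are known to act on osteocalcin promoters. The 250 bases before its RefSeq start (GRCm38.p6, minus strand, chr3:88384467-88384716) are given with capitals for 3 motifs, which were picked after the sequence had been looked at.
Bglap promoter: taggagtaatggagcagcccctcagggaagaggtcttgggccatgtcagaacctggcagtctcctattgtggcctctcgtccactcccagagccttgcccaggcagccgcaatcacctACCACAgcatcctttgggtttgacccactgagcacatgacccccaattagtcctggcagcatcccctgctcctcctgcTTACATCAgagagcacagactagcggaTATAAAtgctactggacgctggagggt

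The Runx core ACCACA lay at positions -132 to -127 from the start, the Atf4 element TTACATCA at -54 to -47, and the TATA box TATAAA at -27 to -22, none overlapping another. Both strands of these 250 bases were searched. Among 32851 RefSeq promoters of that length, 14.0% held the Runx core, 0.965% the Atf4 element and 12.4% the TATA box, so the Runx core and the TATA box occur in many promoters. None of the 3 motifs was found in the 250 bases before the RefSeq starts of Bglap3. A match is a description of the letters and not a measurement of binding.

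Osteocalcin transcripts were more abundant in each Ni library than in each control library, without passing the test adjusted over all genes. For replicates 1, 2 and 3 in turn, the counts of Bglap were 193, 95 and 257 in the control group and 761, 287 and 813 in the Ni group. Scaled by library size, these were 10.6, 5.98 and 15.4 CPM in controls and 41.3, 16.5 and 44.9 CPM in Ni libraries. Ni replicate 2 was far below the other Ni libraries and only 1.07 times the highest control, replicate 3, while Ni replicates 1 and 3 were clear of all controls. The mean was 10.7 ± 4.72 CPM in controls and 34.3 ± 15.5 CPM under nickel (SD, n = 3 each). The log2 fold change of Bglap was 1.68 (standard error 0.47, 95% confidence interval 0.55 to 2.82, edgeR's quasi-likelihood test, adjusted p = 0.305).

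The counts of Bglap2, in the same order of replicates, were 23, 34 and 122 without nickel and 234, 171 and 217 with it. The levels of Bglap2 were 1.26, 2.14 and 7.32 CPM in controls and 12.7, 9.84 and 11.99 CPM in Ni libraries. Here the Ni libraries lay close together, and the spread was among the controls, where replicate 3 held several times the level of the other two. The lowest Ni library was 1.34 times the highest control. The mean was 3.57 ± 3.27 CPM in controls and 11.5 ± 1.49 CPM under nickel (SD, n = 3 each). The log2 fold change of Bglap2 was 1.69 (standard error 0.55, 95% confidence interval 0.40 to 2.99, edgeR's quasi-likelihood test, adjusted p = 0.320). Without control replicate 3 it was 2.78 (edgeR, adjusted p = 7.29e-05), so that 1 library decided whether Bglap2 was called. Bglap was 2.05 without the same library (edgeR, adjusted p = 0.136). With Ni replicate 2 left out instead, Bglap was 2.02 and Bglap2 1.80 (edgeR, adjusted p = 0.0801 and 0.249).

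Bglap3 had 0 counts in all 6 libraries. A count of 0 allows up to 3 counts, which corresponds to at most 0.161 to 0.186 CPM in a single library, and to 0.0590 CPM over the pooled controls and 0.0556 CPM over the pooled Ni libraries. Any Bglap3 transcript was thus below the detectable level in both groups, in spite of its large part of sequence held by no other gene, and no fold change can be given. These floors, like the intervals on shares given later, cover counting error only.

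**Figure D2:**
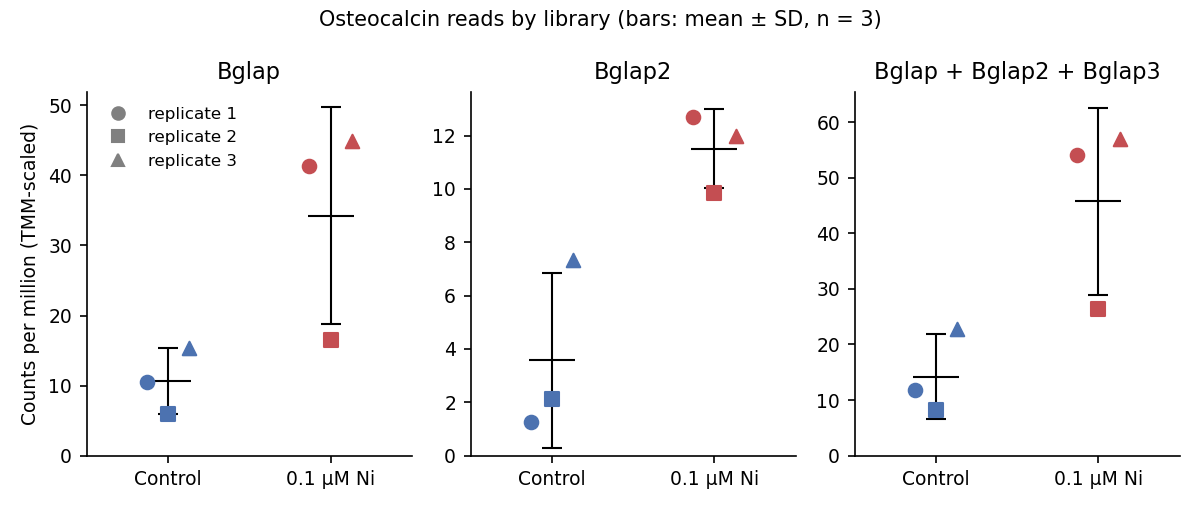
Level of Bglap, of Bglap2 and of the summed osteocalcin genes in each library, in CPM scaled by TMM (y axis, a separate scale for each panel), with 1 point for each of the 3 control and 3 Ni libraries, its shape giving the replicate, and black bars for the group mean ± SD. All Ni points of Bglap (16.5 to 44.9 CPM) and Bglap2 (9.84 to 12.7 CPM) lie above all control points (5.98 to 15.4 and 1.26 to 7.32 CPM).

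The sum of the members does not depend on how counted reads were divided between them, though it would still lack any shared reads that were discarded. The sum came to 216, 129 and 379 counts without nickel and to 995, 458 and 1030 with it, or 11.8, 8.12 and 22.7 CPM against 54.0, 26.4 and 56.9 CPM. The order from low to high was control replicates 2, 1 and 3, then Ni replicates 2, 1 and 3; control replicate 3 and Ni replicate 2, the neighbours where the groups meet, were 1.16-fold apart. Means were 14.2 ± 7.60 CPM (SD, n = 3) and 45.8 ± 16.9 CPM (SD, n = 3). The log2 fold change of summed osteocalcin was 1.69 (standard error 0.45, 95% confidence interval 0.60 to 2.78, edgeR's quasi-likelihood test, adjusted p = 0.294), and 2.20 without control replicate 3 (edgeR, adjusted p = 0.0403). DESeq2 gave adjusted p-values of 0.0934 for Bglap, 0.248 for Bglap2 and 0.0720 for the sum. In an exact permutation test, two-sided, p was 0.1 for Bglap, for Bglap2 and for the sum, the smallest p that 3 libraries against 3 can give. In bulk RNA, more osteoblasts in a culture and more osteocalcin RNA per osteoblast cannot be told apart.

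Over all 14624 genes tested, edgeR called 0% at an adjusted p under 0.05, and the smallest adjusted p was 0.185. At an unadjusted p under 0.05, 7.59% of genes were higher and 5.83% lower in Ni libraries, and both expressed members were among the higher ones. Genes with every Ni library above every control library made up 7.97%, and those with every Ni library below made up 6.71%. DESeq2 called 1.46% of genes as higher, with no member among them, and edgeR without control replicate 3 called 8.69% as higher, with Bglap2 among them. Ordered by log2 fold change from the highest down, Bglap2 was at rank 43 and Bglap at rank 44 of the 14624 genes.

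Per length, in FPKM, the level of Bglap was 17.1 ± 7.55 (SD, n = 3) in controls and 55.2 ± 25.03 (SD, n = 3) in Ni libraries, and that of Bglap2 was 7.52 ± 6.88 (SD, n = 3) and 24.3 ± 3.24 (SD, n = 3). By FPKM, Bglap was at rank 2049 to 4907 of the genes listed above 0 in a control library and at rank 625 to 1954 in a Ni library. Bglap2 was at rank 3279 to 9438 in controls and at rank 1889 to 2508 in Ni libraries. Osteocalcin was thus a transcript of moderate level at day 7. Other bone matrix genes were far above it in FPKM: Spp1, which encodes osteopontin, averaged 3606 in controls and 5606 in Ni libraries, and Ibsp, which encodes bone sialoprotein, averaged 690 and 2245.

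The make-up of the osteocalcin reads did not differ detectably between the groups. Bglap took 89.4%, 73.6% and 67.8% of the osteocalcin counts across the controls, and 76.5%, 62.7% and 78.9% across the Ni libraries, in replicate order. The exact 95% binomial (Clopper-Pearson) intervals of these shares were 84.5 to 93.1%, 65.2 to 81.0% and 62.9 to 72.5% in controls, and 73.7 to 79.1%, 58.0 to 67.1% and 76.3 to 81.4% in Ni libraries. Control replicate 1, the highest, and Ni replicate 2, the lowest, had intervals apart from those of the other libraries of their group, while those of control replicates 2 and 3 overlapped, as did those of Ni replicates 1 and 3. The mean share of Bglap was 76.9 ± 11.1% (SD, n = 3) in controls and 72.7 ± 8.77% (SD, n = 3) in Ni libraries, a difference of -4.24 percentage points (exact permutation test, two-sided, p = 0.7). The difference without control replicate 3 was -8.80 percentage points, and it turned to 1.97 without control replicate 1 and to 0.772 without Ni replicate 2. Differences between single Ni and control libraries ran from -26.7 to 11.1 percentage points, so a sizeable shift in either direction is within the spread. Since Bglap3 had no counts, the share of Bglap2 is the complement and its test is the same one.

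By counts, Bglap exceeded Bglap2 in every library, by 1.68 to 8.39 times. Per length the excess was 1.28 to 6.39 times in FPKM, which divide the counts of Bglap by 618 exon bases including the retained intron and those of Bglap2 by 471. With the 440 bases of the coding transcript of Bglap in place of 618, the excess was 1.80 to 8.98 times. Bglap was thus the higher member on these 3 scales in each library, but a scale over the sequence private to each gene was not run, and the order could depend on the unknown assignment of shared reads.

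**Figure D3:**
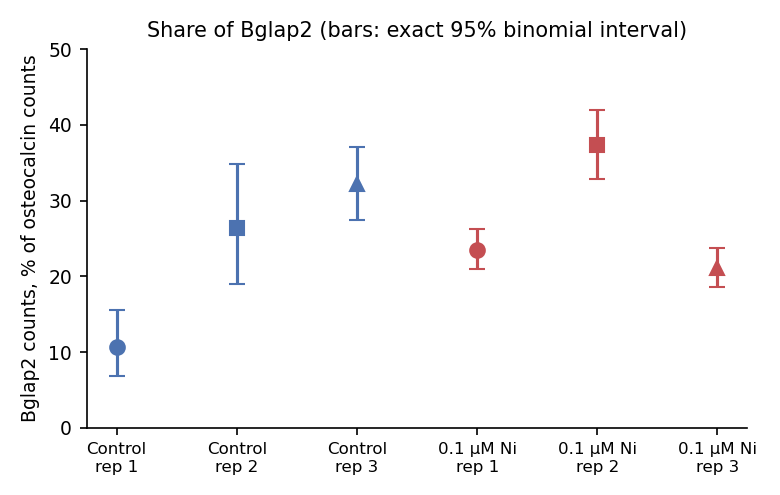
Share of Bglap2 in the osteocalcin counts of each library, in percent (y axis), with exact 95% binomial intervals for counting error, for the 3 Con and 3 Ni libraries. The Con libraries range from 10.6% to 32.2% and the Ni libraries from 21.1% to 37.3%, and the groups overlap.

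The pathway genes around osteocalcin were described by lists of regulators, modifying enzymes and companions. Of 11 activators of osteocalcin transcription, all were tested, 6 were higher at an unadjusted p under 0.05 and none lower in edgeR, none passed the adjusted test, and the median log2 fold change was 0.44, beside -0.01 over all genes tested. DESeq2 called 3 of them as higher at an adjusted p under 0.05, and edgeR without control replicate 3 called 5. Over all genes tested, 7.59% were higher at an unadjusted p under 0.05, and those fits called 1.46% and 8.69% as higher. Sp7, a zinc finger factor required for osteoblast formation, was at 46.3 ± 13.2 CPM in controls and 85.0 ± 9.40 CPM under nickel (SD, n = 3 each, log2 fold change 0.88, standard error 0.18, edgeR, adjusted p = 0.212). Its counts were 732, 593 and 1024 in controls and 1619, 1293 and 1675 in Ni libraries, without overlap.

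Runx2, the master factor of the osteoblast lineage, had 466, 353 and 461 counts in controls and 708, 537 and 724 in Ni libraries (log2 fold change 0.54, standard error 0.13, edgeR, adjusted p = 0.243). Dlx3, a homeodomain factor of osteoblasts, had the highest value of the list at 1.26 (standard error 0.35), from 27, 27 and 64 counts in controls to 120, 86 and 96 in Ni libraries. Dlx5, of the same family, was at 0.54 (standard error 0.17). Vdr, the vitamin D receptor, was at 0.44 (standard error 0.17), and Fosl2, an AP-1 subunit, at 0.50 (standard error 0.18). In none of these 6 genes did the CPM of the groups overlap, beside 7.97% of all genes tested with every Ni library above every control. The other 5 did not pass an unadjusted p of 0.05 in edgeR: Cbfb, the partner of Runx2, was at 0.06, Atf4 at 0.04 and Rxra, the partner of Vdr, at 0.08. Cebpb at -0.15 and Cebpd at -0.17 (standard errors 0.14 and 0.14) were the lowest of the list.

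Of 7 repressors of osteocalcin transcription, 5 were tested and none passed an unadjusted p of 0.05 in edgeR, with a median log2 fold change of 0.07. At that threshold 7.59% of all genes tested were higher and 5.83% lower, so none among 5 genes says little about repressors. Nr3c1, the glucocorticoid receptor through which dexamethasone acts, was at 145 ± 9.92 CPM in controls and 143 ± 8.01 CPM under nickel (SD, n = 3 each, log2 fold change -0.02, standard error 0.10). Hdac3, a histone deacetylase that binds Runx2, was at 0.07 (standard error 0.10), Hey1, a Notch target, at 0.66 (standard error 0.39), and Smad3, a mediator of TGF-β signalling, was the lowest at -0.15 (standard error 0.10). Hey1 had only 10 to 26 counts in a library, and its CPM was higher in every Ni library than in every control, as for 7.97% of all genes tested. Twist1, which blocks Runx2, was at 0.48 (standard error 0.26, edgeR, adjusted p = 0.448), and at 0.80 without control replicate 3 (edgeR, adjusted p = 0.0146), the single repressor called by that fit. The same fit called 8.69% of all genes as higher. Msx2 and Twist2 were too low for the test, with at most 8 counts in a library.

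The machinery that makes Gla residues was expressed in both groups. Of its 5 genes, 1 was higher at an unadjusted p under 0.05 in edgeR, beside 7.59% of all genes tested. None passed the adjusted test in edgeR, and the median log2 fold change was 0.26. Ggcx, the γ-carboxylase itself, had 341, 262 and 338 counts in controls and 458, 344 and 492 in Ni libraries (log2 fold change 0.37, standard error 0.14, edgeR, adjusted p = 0.339), and in CPM Ni replicate 2 lay between control replicates 1 and 3. Vkorc1 and Vkorc1l1, which recycle vitamin K, were at 0.27 (standard error 0.22) and 0.18 (standard error 0.13). Vkorc1l1 was the more abundant of the pair by CPM, at 37.9 ± 2.92 against 3.84 ± 0.51 in controls (SD, n = 3), a comparison not corrected for gene length. Furin, a protease that removes the propeptide of osteocalcin, was at 0.26 (standard error 0.12), and at 0.38 without control replicate 3 (edgeR, adjusted p = 0.0247). The fit without that library called 8.69% of all genes as higher. Nqo1, a quinone reductase, was at 0.18 (standard error 0.22).

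Genes of other proteins that carry Gla residues had values nearer 0 for the most part. Of 14 such genes, 9 were tested, none passed an unadjusted p of 0.05 in edgeR, and the median log2 fold change was 0.07. At that threshold 7.59% of all genes tested were higher and 5.83% lower. Mgp, the matrix Gla protein that inhibits calcification, was at 233 ± 16.9 CPM in controls and 208 ± 16.2 CPM under nickel (SD, n = 3 each, log2 fold change -0.16, standard error 0.10). Gas6, a ligand of TAM receptors, was the most abundant by CPM at 1344 ± 103 and 1400 ± 145 (SD, n = 3, log2 fold change 0.06, standard error 0.13). Pros1, protein S, was at 0.07 (standard error 0.10). The transmembrane Gla proteins Prrg1, Prrg2 and Prrg3 were at 0.23, 0.15 and 0.53 (standard errors 0.29, 0.12 and 0.38). The coagulation genes F9, F10 and Proz had low counts, with values of -0.23, 0.73 and -0.39 (standard errors 0.54, 0.53 and 0.32).

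Companions of osteocalcin in late osteoblasts and bone matrix mostly had positive values. Of 18 genes listed, 16 were tested, 15 had a positive log2 fold change, 12 were higher at an unadjusted p under 0.05 and none lower in edgeR, and none passed the adjusted test. The median log2 fold change was 0.98. The groups did not overlap for 9 of them, all with the Ni libraries on top. DESeq2 called 9 as higher, and edgeR without control replicate 3 called 10. Over all genes tested, 7.59% were higher at an unadjusted p under 0.05 and 7.97% had every Ni library above every control. DESeq2 called 1.46% as higher, and edgeR without control replicate 3 called 8.69%. Ibsp had 17107, 13126 and 42586 counts in controls and 98246, 48504 and 106328 in Ni libraries (log2 fold change 1.70, standard error 0.51, edgeR, adjusted p = 0.309), the same order of libraries, with control replicate 3 just below Ni replicate 2, as for the osteocalcin sum. Mepe, a phosphoglycoprotein of osteocytes, was the highest of the list at 1.84 (standard error 0.62), from 26, 27 and 52 counts to 141, 36 and 229, with Ni replicate 2 inside the range of the controls.

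Phex, an endopeptidase of osteocytes, was at 1.47 (standard error 0.43), and Ifitm5, a membrane protein of mineralizing osteoblasts, at 1.46 (standard error 0.36). Smpd3, a sphingomyelinase needed for mineralization, was at 1.13 (standard error 0.19), Dmp1, an early osteocyte gene, at 0.98 (standard error 0.20), Col1a2, a chain of type I collagen, at 0.97 (standard error 0.21), and Sparc, which encodes osteonectin, at 0.82 (standard error 0.21). Col1a1 and Alpl were at 1.13 and 1.07 (standard errors 0.24 and 0.26). Spp1 was at 0.63 (standard error 0.27) and Omd, which encodes osteomodulin, at 0.62 (standard error 0.26). The other tested genes of the list did not pass an unadjusted p of 0.05 in edgeR: Enpp1 was at 0.14 (standard error 0.17), Ank at 0.08 (standard error 0.09) and Phospho1 at -0.27 (standard error 0.63) on 3 to 15 counts, and Pdpn, an early osteocyte marker, at 0.06 (standard error 0.27). Sost, the gene of mature osteocytes, had 0 counts in every library, and Dspp had at most 2.

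**Figure D4:**
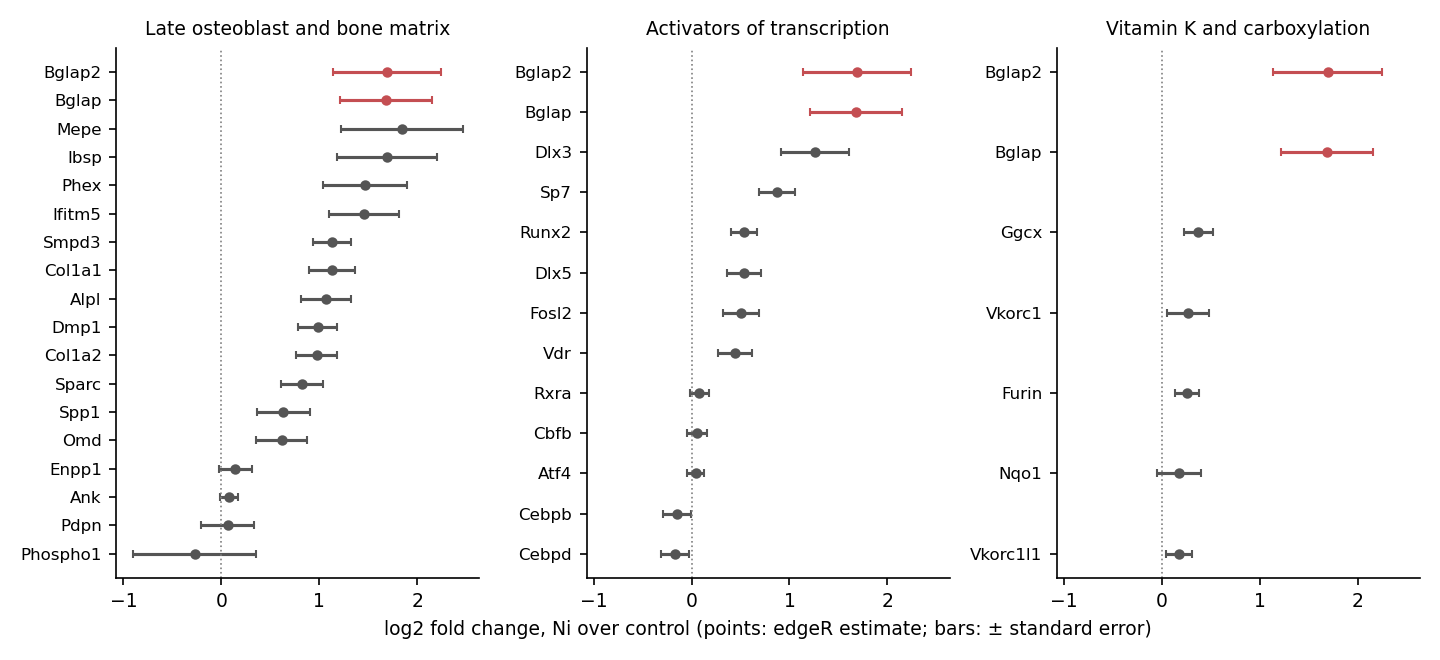
Log2 fold change of Ni over control libraries (x axis) with bars of 1 standard error on either side, from edgeR, for the tested genes (y axis) of the late osteoblast list, the activators and the vitamin K list, with Bglap and Bglap2 in red at the top of each panel. Bglap and Bglap2 lie at 1.68 and 1.69, beside Ibsp at 1.70, while the vitamin K genes lie from 0.18 to 0.37.

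Genes of osteocalcin activation and reception gave no adjusted call in edgeR. Of 6 tested, 1 was higher at an unadjusted p under 0.05, beside 7.59% of all genes tested. That gene was Tnfrsf11b, which encodes osteoprotegerin, at 0.49 (standard error 0.16) on the log2 scale, and at 0.69 without control replicate 3 (edgeR, adjusted p = 0.00170). Ctsk, cathepsin K, was the highest at 0.62 (standard error 0.31), and at 1.08 without that library (edgeR, adjusted p = 0.000194). Tcirg1, a proton pump subunit of osteoclasts, was the lowest at -0.28 (standard error 0.13), and at -0.36 without it (edgeR, adjusted p = 0.0398). Of 15044 genes tested without control replicate 3, 1307 were called higher and 976 lower. Ptprv and Insr, a phosphatase and its substrate the insulin receptor, were at 0.34 and -0.19 (standard errors 0.17 and 0.10), and Foxo1 was at 0.33 (standard error 0.16). The median of the 6 was 0.34. Gprc6a, a receptor proposed for osteocalcin, had 0 counts in every library, and Gpr158 and Gpr37, proposed receptors of the brain, had at most 2 and 1.

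Neighbouring genes were compared to see whether the difference extended over the region. Of 17 annotated genes within 100000 bases on either side, 11 are protein-coding and 9 passed the filter on low counts. The median log2 fold change was -0.02, and 1 gene was higher at an unadjusted p under 0.05, beside 7.59% of all genes tested. That gene, Lmna, which encodes lamins A and C, lies 95682 bases from Bglap and was at 0.56 (standard error 0.17, edgeR, adjusted p = 0.295). Without control replicate 3, Lmna at 0.80 and Sema4a at 0.72, against 0.22 with all libraries, were called higher (edgeR, adjusted p = 0.000274 and 0.00445). The same fit called 8.69% of all genes as higher. No neighbour overlapped a member. The closest one, Paqr6, on the plus strand, ends 74 bases from Bglap3, and had 0 to 8 counts in a library. The pseudogenes Gm21956 and Gm6821 lie between members, on the opposite strand, and had 0 counts and at most 1 count. Pmf1, on the Bglap side of the cluster, was at -0.07 (standard error 0.14), and Smg5, on the Bglap3 side, at -0.09 (standard error 0.11). The values of Bglap and Bglap2 were thus above those of each tested neighbour.

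Across the 6 libraries, the log2 CPM of Bglap and Bglap2 had a Pearson's r of 0.825, given as a description since the libraries share their group difference. The genes most like summed osteocalcin, among 9976 with a mean log2 CPM of at least 3, were Armcx1 (r = 0.998), Vldlr (r = 0.998), Cd200 (r = 0.998), Col10a1 (r = 0.998) and Mest (r = 0.997). Their log2 fold changes ran from 0.74 for Cd200 to 1.15 for Vldlr. The groups overlapped for Mest and not for the other 4. Among the listed genes the highest values were those of Ibsp (r = 0.991), Runx2 (r = 0.986), Tnfrsf11b (r = 0.985) and Sp7 (r = 0.980).

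Relative to other osteoblast genes, the values of osteocalcin in the groups overlapped. Against Ibsp, a denominator taken like the others after the data had been seen, the log2 ratio of summed osteocalcin was -6.31, -6.67 and -6.81 in controls and -6.63, -6.73 and -6.69 in Ni libraries, all within a span of 0.51. The difference in means was -0.08 (exact permutation test, two-sided, p = 0.8). Against Alpl, which encodes alkaline phosphatase, the difference was 0.62 (p = 0.2 in the same exact permutation test), against Col1a1 0.56 (exact permutation p = 0.3) and against Sp7 0.83 (exact permutation p = 0.2). Against the mean log2 CPM of 6 osteoblast markers it was 0.60 (exact permutation p = 0.2), with -3.78, -4.33 and -3.62 in controls and -3.16, -3.69 and -3.06 in Ni libraries. Ni replicate 2 was inside the range of the controls there, and Ni replicates 1 and 3 were above it. Adjusted over these 5 comparisons by Benjamini-Hochberg, the exact permutation p was 0.8 for Ibsp, 0.375 for Col1a1 and 0.333 for the other 3. The comparisons share their numerator, and 0.1 is the smallest p that the exact permutation test allows.

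**Figure D5:**
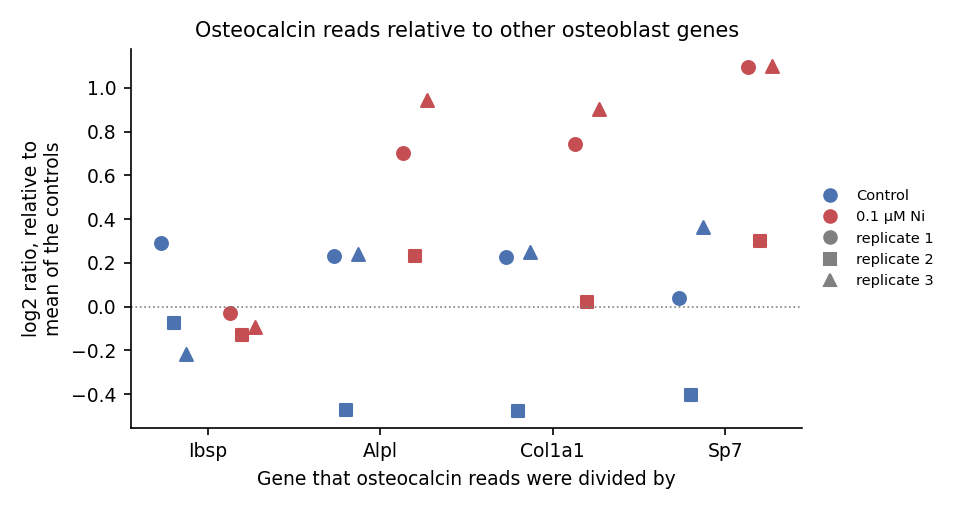
Log2 ratio of summed osteocalcin to Ibsp, Alpl, Col1a1 or Sp7 (x axis) in each library, relative to the mean of the controls (y axis), with 1 point for each library and its shape giving the replicate. Against Ibsp the difference in means is -0.08, and against the other 3 genes it is 0.56 to 0.83 with Ni replicate 2 inside the range of the controls.

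Markers of cell types differed between the groups to various degrees, and their part in the osteocalcin result was not tested. All 6 osteoblast markers were higher at an unadjusted p under 0.05 in edgeR, with a median log2 fold change of 1.10. At that threshold 7.59% of all genes tested were higher and 5.83% lower. Runx2, Sp7, Alpl, Col1a1 and Ibsp had already been counted in the activator or late osteoblast lists, so this is not a separate result. Of 6 stromal markers, Cxcl12 was lower (-0.47, standard error 0.14) at an unadjusted p under 0.05, and Pdgfra, Pdgfrb and Eng were at 0.07, 0.21 and 0.25 (standard errors 0.09, 0.11 and 0.13), of which Pdgfrb and Eng were called higher without control replicate 3 (edgeR, adjusted p = 0.0238 and 0.0123). Lepr and Thy1 were at -0.13 and -0.07 (standard errors 0.15 and 0.37). The stromal sum was 2029 to 2524 CPM in controls and 1621 to 1863 CPM in Ni libraries, most of it Cxcl12 at a mean of 2071 and 1491 CPM. Of 6 macrophage markers, Ptprc and Itgam were lower at an unadjusted p under 0.05 (-0.36 and -0.40, standard errors 0.14 and 0.13), Adgre1 was at -0.35 (standard error 0.17), and Cd68, Csf1r and Lyz2 were at 0.05, 0.01 and 0.02 (standard errors 0.11, 0.11 and 0.19). Of 6 osteoclast markers 3 were tested, with Acp5 and Mmp9 lower (-0.90 and -0.83, standard errors 0.35 and 0.32), Ctsk at 0.62 as given above, and a sum of 640 to 1333 CPM in controls and 594 to 680 CPM in Ni libraries, while the defining genes Calcr, Ocstamp and Dcstamp had at most 8 counts. Adipocyte markers summed to 532 to 855 CPM in controls and 451 to 610 CPM in Ni libraries, and 4 of them were tested, with a median log2 fold change of 0.29. Lpl, the most abundant of them by CPM, was lower (-0.49, standard error 0.21) at an unadjusted p under 0.05 except with upper-quartile normalization. Adipoq, Fabp4 and Plin1 were at 0.16, 0.43 and 1.52 (standard errors 0.12, 0.21 and 0.86), and without control replicate 3 Fabp4 and Plin1 were called higher (edgeR, adjusted p = 0.00121 and 0.00791). Endothelial markers summed to 40.7 to 69.2 CPM and 37.0 to 42.9 CPM, with 1 of 3, Pecam1, lower. Of 3 chondrocyte markers, Sox9 and Col2a1 were higher (0.90 and 0.50, standard errors 0.25 and 0.18), with a sum of 55.3 to 88.1 CPM and 92.5 to 126 CPM, and Acan had at most 4 counts. Neutrophil markers summed to 1.53 to 3.18 CPM and 2.04 to 2.25 CPM, neither of the 2 tested differed at an unadjusted p under 0.05, and S100a9 was at 0. Without control replicate 3, Cxcl12, Ptprc, Adgre1 and Itgam were called lower (edgeR, adjusted p = 0.00168, 0.00170, 0.00405 and 0.00838). So were Acp5, Lpl and Pecam1 (edgeR, adjusted p = 5.85e-05, 0.00246 and 0.00118). All 6 osteoblast markers, Sox9 and Col2a1 were called higher there. Over all 15044 genes tested in that fit, 1307 (8.69%) were called higher and 976 lower.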

How the data were processed

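RNA-seq was analysed from 3 Con and 3 Ni libraries, grouped by their sample labels. The authors deposited counts, whole numbers of reads on each gene, without normalizing them. The deposited FPKM values equal those counts divided by gene length and a library factor, with a largest relative deviation of 3.29e-07. The genome build was GRCm38 per the labels. Aligner, counting tool and strand setting are not given in the sources used here. Chi-square per degree of freedom between libraries of a group was 4.37 to 43.6, so none was a duplicate.

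Genes passing edgeR's filterByExpr (14624) were normalized by TMM and tested with the quasi-likelihood test of edgeR 4.0.16 (R 4.3.3; robust fit, prior count 0.125), adjusting by Benjamini-Hochberg over all of them and a threshold of 0.05. Standard errors are the unshrunk coefficient over the root of F. The sum was fitted as 1 row in place of the members. Bglap3, with no counts, did not enter the fit. DESeq2 1.42.0 and limma 3.58.1 on log2(FPKM + 1) and log2(FPKM + 0.1) were alternatives, besides other normalizations and filters, single libraries left out and a replicate block. The scripts were tested on simulated data. Log2 CPM used a prior count of 2. Intervals of shares are at 95%. Sequence work used GENCODE M21 and RefSeq tables in Python 3.11.15 with Biopython 1.88.

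The members and gene lists were chosen with earlier results of these data known. The genes named are the members, the members of the lists with at least the highest and lowest of each, tested Gla genes, neighbours that touch the cluster and the 5 genes most like summed osteocalcin; the cell markers and the other neighbours given with values were chosen after their values were seen. Of the 3 members, Bglap and Bglap3 had RefSeq promoter entries. From the activator list and the vitamin K list 1 gene each is not reported here and was left out of the counts.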

Additional observations from a re-analysis of the deposited data

How the results depend on the processing

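The log2 fold changes of Bglap, Bglap2 and summed osteocalcin kept their sign under every alternative run. Normalization by size factors, upper quartile or totals, both filters, DESeq2 and limma on FPKM left them between 1.60 and 2.06, with adjusted p-values from 0.0720 to 0.668. With each library left out in turn, Bglap ranged from 1.40 (without Con replicate 2) to 2.05 (without Con replicate 3), Bglap2 from 1.28 (without Con replicate 1) to 2.78, and the sum from 1.41 to 2.20. Without Con replicate 3, Bglap2 (2.78, adjusted p = 7.29e-05) and the sum (2.20, adjusted p = 0.0403, edgeR) passed the threshold. That library had been singled out by its likeness to the Ni libraries, which favours such calls, and the cause was not tested. The number of genes called was 0 in edgeR, with 1963 below an unadjusted p of 0.05. It was 1027 without a filter on low counts, 256 with DESeq2 and 0 to 2283 with single libraries left out, the highest without Con replicate 3 and 13 without Ni replicate 2. The difference in the share of Bglap, -4.24 percentage points, ranged from -8.80 to 1.97. It turned sign without Con replicate 1 (1.97, and -1.97 for Bglap2) and without Ni replicate 2 (0.772, and -0.772 for Bglap2). For Bglap2 the range was -1.97 to 8.80, and for Bglap3 the share stayed at 0. Relative to 6 osteoblast markers, an alternative chosen after seeing the data, the sum was 0.60. Bglap3 gave no fold change under any setting. The median of the stromal markers, -0.00149, was 0.00224 or 0.00674 under other normalizations, without a direction to report.

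The deviations of Con and Ni libraries that carry the same number correlated at 0.01, 0.26 and 0.14, which does not establish a pairing. With a replicate block, Bglap was 1.67 (edgeR, adjusted p = 0.000768), the sum 1.73 (adjusted p = 0.00515) and Bglap2 1.93 (adjusted p = 0.109), and 315 genes were called. Bglap2 had 23 counts in its lowest library, and Bglap3 had 0 in each, which limits what depth can show.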
